A study of Homo sapiens with 2 samples.

Results

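The genes described here are 49 interferon-stimulated and RNA-sensing genes, chosen by name from the 60711 genes of an RNA-sequencing table of A549 cells, a human lung cancer line. All 49 symbols matched an Ensembl identifier in the table, and 47 of them carried a value. The 2 libraries are A549 cells 48 h after Lipofectamine transfection of a control siRNA (si-ctrl) and A549 cells 48 h after transfection of an siRNA against the long noncoding RNA MILIP, also named MAFG-AS1 (si-MILIP), with 1 library per condition. Both conditions share the cell line, the medium and the transfection, and there is no untransfected library. A response to transfection itself cannot be told apart from the level in resting cells, nor loss of MILIP from other effects of the siRNA. The study names the siRNA of this experiment as si-MILIP.2. MILIP (ENSG00000265688) had a value of 29.5 with si-ctrl and 3.22 with si-MILIP, or 10.9% of control.

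Values are CPM, reads scaled to a common library total, that the authors had scaled further for each library. Each is a whole multiple of a fixed step, taken here as 1 read, and genes under 20 reads, which is a value of about 1, are listed at 0. The listed values stand for 20300800 reads with si-ctrl and 19460956 reads with si-MILIP. No condition was repeated, so the spread between cultures is unknown and no test was made. The log2 ratio given for a gene is log2((si-MILIP + 1)/(si-ctrl + 1)), which understates the difference of low genes. A gene is termed higher or lower when this ratio reached 1.5-fold. The limits given beside it are 95% Clopper-Pearson limits on the log2 ratio without the added 1, and they cover counting error only. Bulk RNA values do not separate fewer cells from less RNA per cell. Of 5 epithelial markers, KRT8 was listed at 2543 and 2875, KRT18 at 641 and 655, KRT19 at 62.1 and 122, CDH1 at 30.5 and 50.8 and EPCAM at 2.65 and 5.93 with si-ctrl and si-MILIP. Of 4 blood cell markers, PTPRC and CD3E had no value, CD68 was listed at 0 in both libraries and CD14 was listed at 4.46 and 9.60. PECAM1 and VWF, markers of endothelium, were listed at 0, and CDKN2A, a gene that A549 cells lack, had no value. The part of the higher KRT19, CDH1, EPCAM and CD14 values in the results below was not tested.

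Cells detect foreign double-stranded RNA through cytosolic helicases and an endosomal receptor, which signal through adaptors to the transcription factors IRF3 and IRF7 and so induce type I interferon. Secreted interferon binds the IFNAR1 and IFNAR2 receptor, and a resulting complex that holds STAT2 and IRF9 binds the interferon-stimulated response element (ISRE) in the promoters of interferon-stimulated genes. Many of these genes are nearly silent until induced, while several sensors and factors are present in resting cells.

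ISG15, IFI6 and IFITM3 were more than 2-fold higher, whereas MAVS, OAS3 and IFNAR2 were more than 2-fold lower. Of the 49 genes, 36 had a mean of at least 1 over the libraries. Of these 36, 10 were higher and 4 were lower, or 27.8% and 11.1%. Across all 13521 genes with a mean of at least 1, 11.1% were higher and 13.8% were lower. The median log2 ratio of the 36 genes was 0.14, with 22 above 0 and 14 below 0, against a median of −0.03 for all genes. OASL was listed at 0 with si-ctrl and passed the mean only through its si-MILIP value. Over the 35 genes above 0 in both libraries, the median without the added 1 was 0.12. The counting limits of these 35 genes lay above 0 for 14 and below 0 for 9, or 40% and 25.7%, and spanned 0 for 12. Among all genes above 0 in both libraries, the limits lay above 0 for 30.4% and below 0 for 36.8%.

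**Figure D1:**
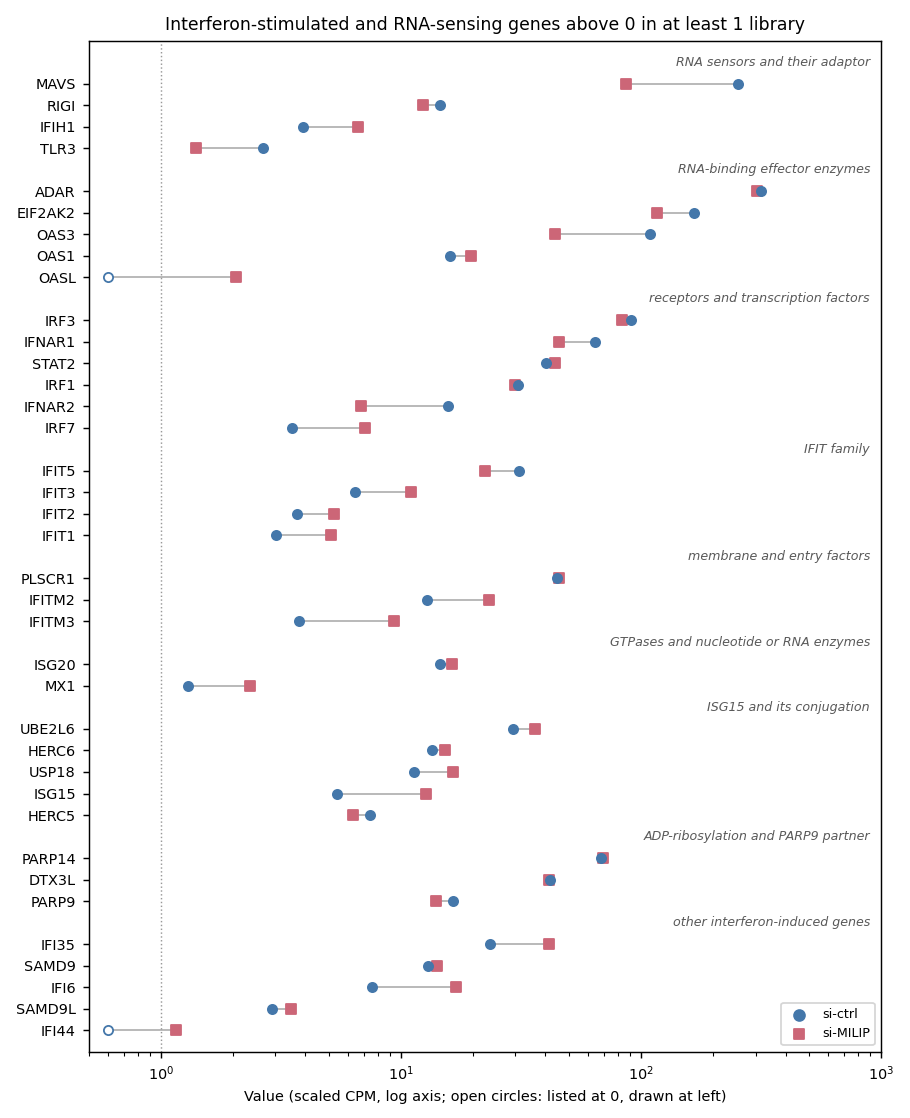
Value of each gene with si-ctrl (circles) and si-MILIP (squares), on a log axis in scaled CPM, for the 37 genes above 0 in at least 1 library, ordered by role and then by mean. The dotted line marks a value of 1, and open circles mark OASL and IFI44, which were listed at 0 with si-ctrl. The si-MILIP square lies to the left for MAVS (255 to 86.6) and OAS3 (109 to 43.8) and to the right for ISG15 (5.41 to 12.7) and IFI6 (7.56 to 17.0).

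The genes were next divided by level. The level is the mean value, not divided by length, so a short gene can count as low. ISG15, with 941 exonic bases, counts as low but stood at place 10 of 37 per kilobase of exonic bases. PARP9, with 8938 exonic bases, counts as abundant and stood at place 28. There were 24 genes with a mean of at least 10 and 12 with a mean from 1 to below 10. Of the 24 abundant genes, 3 were higher and 3 were lower, with a median log2 ratio of −0.00. Among all genes of that level 9.45% were higher and 15.1% were lower, and their median was −0.06. Of the 12 low genes, 7 were higher and 1 was lower, with a median of 0.63, where 15.4% of all genes from 1 to below 10 were higher, 10.5% were lower and the median was 0.06. Without OASL, 6 of 11 low genes were higher, and their median was 0.61. These counts depend on the level chosen: with the division at a mean of 5, 8 of 30 abundant and 2 of 6 low genes were higher, and at a mean of 20, 1 of 14 and 9 of 22 were. The shares of all genes at these other divisions were not counted. The summed value of the 12 low genes was 44.0 with si-ctrl and 72.9 with si-MILIP. That of the 24 abundant genes was 1446 and 1165. The si-MILIP sums are 1.66 and 0.805 times the si-ctrl sum for the low and the abundant genes. In the abundant sum, MAVS and OAS3 differed by −168 and −65.6 (si-MILIP minus si-ctrl). Of the 24 abundant genes, 12 had a log2 ratio above 0 and 12 below 0. Without OASL the sum of the low genes was 1.61 times that with si-ctrl.

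**Figure D2:**
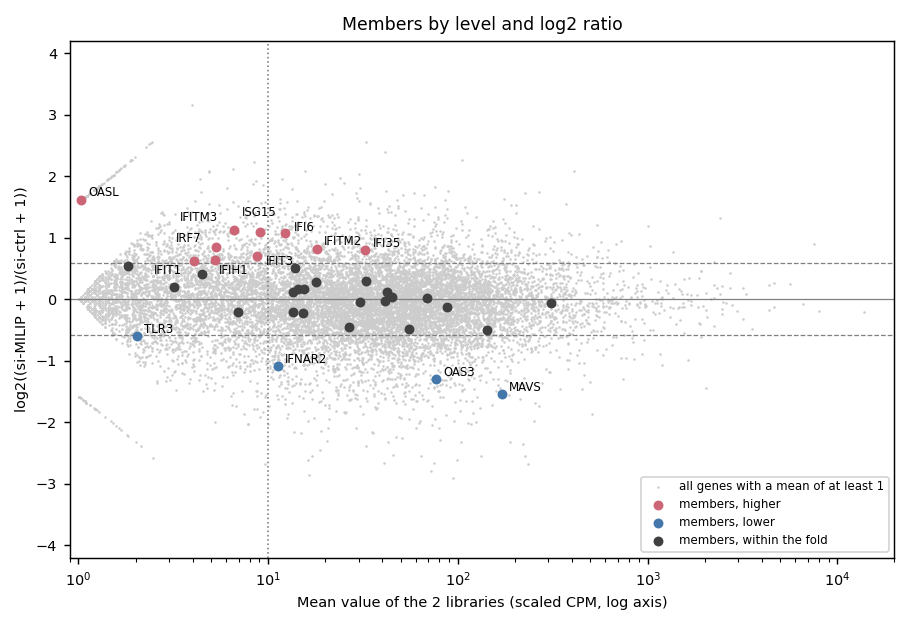
Log2 ratio with 1 added to each value against the mean value of the 2 libraries on a log axis, for all 13521 genes with a mean of at least 1 (grey) and for the 36 members among them (coloured points). Dashed lines mark 1.5-fold and the dotted line a mean of 10. Of the 10 higher members 7 lie to the left of a mean of 10, and OAS3 and MAVS are the lowest members, at log2 ratios of −1.30 and −1.55.

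GC content moved with the log2 ratio across all genes. In 50 bins of equal numbers of genes, the median ratio was −0.24 in the bin of lowest GC content and 0.25 in the bin of highest. The 36 genes had a median GC content of 47.6%, against 48.5% for all genes. After the median of the bin was subtracted from each gene, the median was 0.22 over the 36 genes, 0.11 over the abundant ones and 0.68 over the low ones.

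The share of members that hold the ISRE is only described here. A list of interferon-stimulated genes is in part a choice of genes with this element. Its core was searched as GAAA, any 2 bases and GAAA, on either strand, in RefSeq promoter windows of GRCh38.p14 running from 250 bases before to 50 bases after the gene start. Of 39 members with a window, 25 held the core (64.1%), against 1195 of all 27305 genes with a window (4.38%). A GAS motif, the STAT dimer site TTC, any 3 bases and GAA, was held by 11 of the 39 (28.2%) and by 9.38% of all genes. A match is only a match of letters, and the search misses elements with another gap between the GAAA copies. The OAS1 window holds GAAA copies with a shorter gap and counts as without the core.

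The core and its surroundings are first shown in 28 bases for the higher ISG15, for IFITM3 and for OAS3. The last 2 have the highest and the lowest log2 ratio among the members that hold the core and were above 0 in both libraries. The windows are in gene orientation with the ISRE cores in capitals. They are chr1:1013375-1013402 on the + strand for ISG15, where 2 cores overlap, chr11:320877-320904 on the − strand for IFITM3, and chr12:112938322-112938349 and chr12:112938453-112938480 on the + strand for OAS3. The capitals that open the IFITM3 window are the end of a further core.
ISG15: atgcctcggGAAAGGGAAACCGAAActg
IFITM3: AActgttgaGAAACCGAAActactgggg
OAS3, first core: gaaagaaacGAAACTGAAAgcagggaat
OAS3, second core: gccgggcggGAAAACGAAAccagaaatc

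All 3 promoters hold 2 cores. The value of OAS3 was lower and those of ISG15 and IFITM3 were higher, and the part of the cores in these values was not tested. The core farthest from the RefSeq start begins 113 bases before it in ISG15, 52 in IFITM3 and 143 in OAS3. Among the 18 members with a mean of at least 1 whose window holds the core, 6 were higher and 2 were lower, with a median log2 ratio of 0.07. Among the 11 without it, 1 was higher and 1 was lower, with a median of 0.12. After subtraction of the GC bin median, the medians were 0.22 with the core and 0.17 without it. The members with the core were also less abundant, with a median mean value of 12.9 against 32.5. Of the other genes of the table, 370 with a mean of at least 1 held the core. Their median was −0.05, with 11.4% higher and 15.9% lower, against −0.02, 10.7% and 13.8% for the 9945 other genes without it.

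The same 28 bases are shown for further members, chosen after their values were seen. Some were higher (IFI6, IFIT1, IFIT3 and IFIH1) and the others stayed within 1.5-fold (IFIT5, EIF2AK2 and DTX3L). Capitals mark 1 core per gene and, for IFIT1, also the end of a second core beside it. The full promoter windows of IFI6, IFIH1 and IFIT5 hold 3 cores each, and those of IFIT1 and IFIT3 hold 2. In IFIT1, IFIT3 and IFIT5 the core lies on the opposite strand and so reads TTTC, 2 bases and TTTC. The windows are chr1:27672267-27672294 (−) for IFI6, chr10:89392511-89392538 (+) for IFIT1, chr10:89327866-89327893 (+) for IFIT3, chr2:162318687-162318714 (−) for IFIH1, chr10:89414514-89414541 (+) for IFIT5, chr2:37156968-37156995 (−) for EIF2AK2 and chr3:122564323-122564350 (+) for DTX3L.
IFI6: cagagtgcaGAAATAGAAActccgacag
IFIT1: ACTTTCcccTTTCGGTTTCcctaggttt
IFIT3: ttaaattagTTTCACTTTCcagtttcct
IFIH1: aagagaatcGAAACAGAAAccaaagtca
IFIT5: tctattaagTTTCGGTTTCtgaagctta
EIF2AK2: gtccaagggGAAAACGAAActgagaacc
DTX3L: cagggaagcGAAACTGAAActttgcgcc

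The IFIT1 and IFIT5 cores marked here have the same letters. IFIT1 was higher and IFIT5 was not, and the part of the core in either value was not tested. The DTX3L core is shared with PARP9, which starts in the opposite direction from the same stretch.

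Of the RNA sensors and their adaptor, IFIH1 was higher and TLR3 and MAVS were lower. RIGI (ENSG00000107201) and IFIH1 (ENSG00000115267) encode the cytosolic RNA helicases RIG-I and MDA5. RIGI had a value of 14.5 with si-ctrl and 12.4 with si-MILIP, a log2 ratio of −0.21 with limits from −0.48 to 0.02 that span 0. IFIH1 was listed at 3.91 and 6.64, from 78 and 132 reads, a log2 ratio of 0.64 (limits 0.35 to 1.19). DHX58, a helicase that lacks the signaling domains of both, was listed at 0 in both libraries. TLR3, the endosomal receptor for double-stranded RNA, was the only low member that was lower, at 2.65 and 1.41, from 53 and 28 reads, a log2 ratio of −0.60 (limits −1.63 to −0.23). TLR3 no longer reached 1.5-fold after scaling by the median of ratios or removal of the GC trend.

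MAVS (ENSG00000088888) encodes the mitochondrial adaptor through which RIG-I and MDA5 signal. It lies on chromosome 20 from 3846799 to 3876123 in GENCODE release 29. Its value was 255 with si-ctrl and 86.6 with si-MILIP, from 5086 and 1722 reads. The log2 ratio of −1.55 (limits −1.64 to −1.48) was the lowest of all members, and the si-MILIP value was 34.0% of control. No other annotated gene shares exonic bases with MAVS. After subtraction of the GC bin median its ratio was −1.58.

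The enzymes that bind double-stranded RNA to act on it included the most abundant member. ADAR (ENSG00000160710), which edits adenosine to inosine in double-stranded RNA, had values of 315 and 303, a log2 ratio of −0.05 (limits −0.11 to −0.00). EIF2AK2 (ENSG00000055332) encodes PKR, the kinase that halts translation when it binds double-stranded RNA, and was listed at 167 and 117. Its log2 ratio of −0.51 (limits −0.59 to −0.43) did not reach 1.5-fold.

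The oligoadenylate synthetases OAS1, OAS2 and OAS3 make the messenger that activates RNase L, and they lie side by side on chromosome 12. OAS3 (ENSG00000111331), from 112938352 to 112973249, had a value of 109 with si-ctrl and 43.8 with si-MILIP, from 2186 and 872 reads, a log2 ratio of −1.30 (limits −1.44 to −1.21). Its neighbour OAS1 (ENSG00000089127), from 112906777 to 112933222, was instead listed at 16.0 and 19.7, a log2 ratio of 0.28 (limits 0.08 to 0.51), and OAS2 was listed at 0 in both. OASL, a relative without synthetase activity encoded elsewhere on the same chromosome, was listed at 0 with si-ctrl and at 2.06 with si-MILIP, which is under 20 reads against 41 reads. Of the 3 neighbours, only OAS3 passed 1.5-fold.

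Both chains of the type I interferon receptor had lower values with si-MILIP. IFNAR2 (ENSG00000159110) was listed at 15.7 and 6.84, from 314 and 136 reads, a log2 ratio of −1.09 (limits −1.50 to −0.91). In GENCODE release 29, 44.2% of the exonic bases of IFNAR2 are shared with AP000295.1 on the same strand and 39.1% with IL10RB-DT on the opposite strand, so that its reads may have been split or dropped in counting, and the part of this in its value was not tested. IFNAR1 (ENSG00000142166), which shares no exonic bases, was listed at 64.4 and 45.5. Its log2 ratio of −0.49 (limits −0.63 to −0.38) did not reach 1.5-fold.

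Among the transcription factors only IRF7, itself an interferon-stimulated gene and a main inducer of interferon genes, passed 1.5-fold. IRF7 (ENSG00000185507) was listed at 3.51 and 7.09, from 70 and 141 reads, a log2 ratio of 0.84 (limits 0.59 to 1.45). IRF3, which is present in resting cells and activated by phosphorylation, had values of 91.2 and 83.3, a log2 ratio of −0.13 (limits −0.23 to −0.03). IRF1, a factor induced by interferon gamma, was listed at 30.9 and 30.0 and STAT2 at 40.3 and 43.9, and the limits of both span 0. Exonic bases are shared on the opposite strand by IRF3 (19.35%, with BCL2L12) and IRF1 (22%, with AC116366.3 and C5orf56). The part of these overlaps in the IRF3 and IRF1 values was not tested. IRF9, the partner of STAT2, was listed at 0 in both libraries, and 48.4% of its exonic bases are shared with AL136295.5 on the same strand. The part of that overlap in the 0 was not tested.

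IFIT proteins bind viral RNA through its end or cap, and the genes form a cluster on chromosome 10 from 89283694 to 89421001. The inducible IFIT1, IFIT2 and IFIT3 had higher values with si-MILIP and IFIT5 a lower one. IFIT3 (ENSG00000119917) was listed at 6.41 and 11.1, from 128 and 220 reads, a log2 ratio of 0.70 (limits 0.47 to 1.11). IFIT1 (ENSG00000185745) was listed at 3.01 and 5.13, a log2 ratio of 0.61 (limits 0.30 to 1.26). IFIT2 was listed at 3.71 and 5.28, and its log2 ratio of 0.42 (limits 0.07 to 0.96) was within 1.5-fold. It shares 8.68% of its exonic bases with AL353751.1 on the same strand and 1.6% with LIPA on the opposite strand. IFIT5, the most abundant of the family, was listed at 31.0 and 22.5, a log2 ratio of −0.44 (limits −0.64 to −0.28). The IFIT1 and IFIT5 promoters both hold ISRE cores, as printed above.

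Proteins that act at membranes against virus entry or release gave the highest ratio of any member above 0 in both libraries. IFITM3 (ENSG00000142089), which blocks fusion of viruses in endosomes, was listed at 3.76 and 9.40, from 75 and 187 reads, a log2 ratio of 1.13 (limits 0.93 to 1.73). IFITM2 (ENSG00000185201) was listed at 12.8 and 23.4, from 256 and 465 reads, a log2 ratio of 0.82 (limits 0.64 to 1.09). IFITM1 was listed at 0 in both. The IFITM genes are close copies of each other beside each other on chromosome 11, IFITM1 and IFITM2 share 32.5% and 22.8% of their exonic bases, and 21.3% of those of IFITM3 are shared with AC136475.5 on the opposite strand. Their separate values are therefore uncertain. BST2, which tethers budding virus, was listed at 0 in both libraries, and PLSCR1, a phospholipid scramblase, had values of 44.5 and 45.5 with limits that span 0.

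ISG15 is a ubiquitin-like protein that is attached to other proteins by an enzyme cascade, and its conjugating genes were less different than ISG15 itself. ISG15 (ENSG00000187608), on chromosome 1 from 1001138 to 1014540, was listed at 5.41 and 12.7, from 108 and 252 reads, a log2 ratio of 1.09 (limits 0.90 to 1.57). UBE2L6, the conjugating enzyme, was listed at 29.3 and 36.1, a log2 ratio of 0.29 (limits 0.14 to 0.46). USP18, the protease that removes ISG15 and restrains the receptor, was listed at 11.3 and 16.4, a log2 ratio of 0.50 (limits 0.29 to 0.79). HERC5, the ligase for ISG15, was listed at 7.46 and 6.34 and its neighbour HERC6 at 13.5 and 15.3, and the limits of both span 0. Of the 5 genes, only ISG15 passed 1.5-fold.

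**Figure D3:**
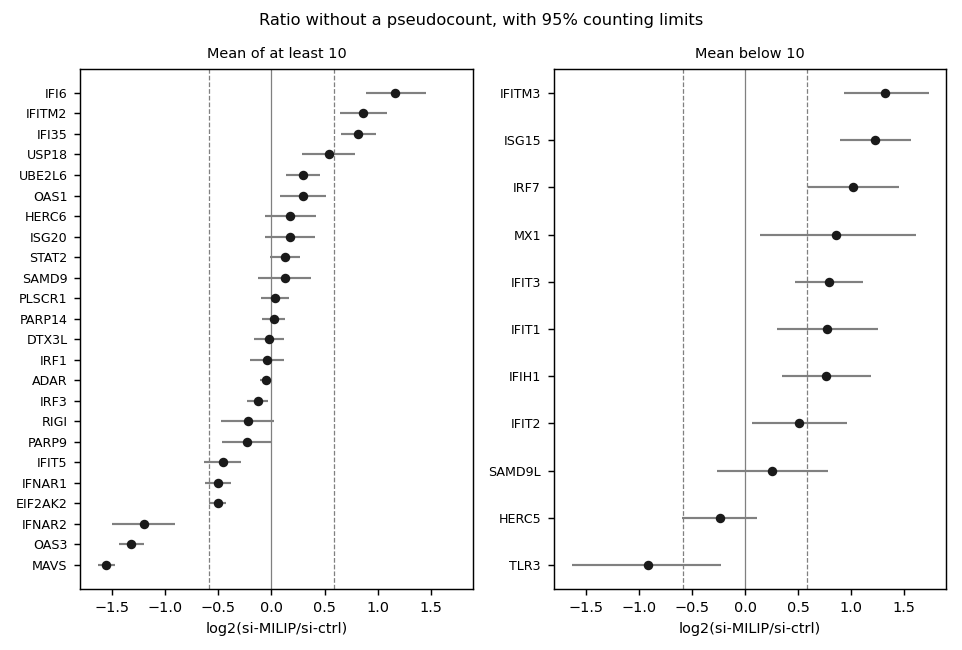
Log2 ratio of si-MILIP over si-ctrl without the added 1 (points) and its 95% counting limits (lines) for the 35 members above 0 in both libraries, split at a mean of 10. Solid and dashed vertical lines mark equality and 1.5-fold. The limits of MAVS, OAS3 and IFNAR2 lie wholly below the lower dashed line, and those of IFI6, IFITM2, IFI35, IFITM3, ISG15 and IRF7 wholly above the upper one.

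The remaining interferon-induced genes were higher, close to equal or below the listing limit. IFI6 (ENSG00000126709), an endoplasmic reticulum protein on chromosome 1 from 27666061 to 27672218, was listed at 7.56 and 17.0, from 151 and 338 reads, a log2 ratio of 1.07 (limits 0.89 to 1.45). IFI35 (ENSG00000068079) was listed at 23.5 and 41.5, a log2 ratio of 0.79 (limits 0.66 to 0.99), and was the most abundant of the higher members. IFI44 was listed at 0 with si-ctrl and at 1.16 with si-MILIP, from under 20 reads and 23 reads, and its mean fell short of 1. IFI44L, its neighbour, and IFI27 were listed at 0 in both. SAMD9 (12.9 and 14.1) and SAMD9L (2.91 and 3.47), neighbouring genes that restrict poxviruses, had limits that span 0.

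The antiviral GTPase MX1 was listed at 1.30 and 2.36, from 26 and 47 reads. Its log2 ratio of 0.55 was within 1.5-fold, and its ratio without the added 1 was 0.86 (limits 0.14 to 1.61). MX2 was listed at 0. ISG20, an exonuclease for single-stranded RNA, was listed at 14.5 and 16.4 with limits that span 0. CMPK2, a mitochondrial nucleotide kinase, was listed at 0 in both libraries. Its neighbour RSAD2, which makes a chain-terminating nucleotide, and XAF1, an apoptosis factor, had no value. The chemokine CXCL10, a sensitive marker of interferon and RNA sensing, was listed at 0 in both.

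PARP9 and DTX3L, which form an ADP-ribosylating ubiquitin ligase, and PARP14 lie together on chromosome 3, and none of the 3 passed 1.5-fold. PARP9 was listed at 16.4 and 14.0, DTX3L at 41.9 and 41.2 and PARP14 at 68.4 and 69.4. The limits of all 3 span 0. These interferon-inducible genes were abundant in both libraries and close to equal. The windows of all 3 hold the ISRE core, and its part in their values was not tested.

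Of the 49 genes, 12 had no listed level in either library, 10 listed at 0 and 2 without a value. Of the 10 listed at 0, 7 had a promoter window and 5 of these (IFI44L, IFI27, IFITM1, BST2 and CXCL10) held the core. Of the 10 higher genes, 7 had a window and 6 held it. Of the 4 lower genes, 3 had a window and 2 held it. Of the 22 within 1.5-fold, 19 had a window and 10 held it. A value of 0 stands for fewer than 20 reads and does not show absence.

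Levels can be compared between genes only per length, here as value per kilobase of exonic bases in GENCODE release 29, averaged over the libraries. ADAR was highest at 31.9, followed by IRF3 at 23.0, IFI35 at 16.5, UBE2L6 at 14.9, MAVS at 14.5 and IFI6 at 14.2. ISG15, a short gene with 941 exonic bases, stood at place 10 with 9.61, ahead of OAS3 at 9.29. The lowest was MX1 at 0.213. Neighbours in this order could not be separated, since their spread over cultures is unknown. Between the libraries, MAVS went from 21.6 per kilobase with si-ctrl to 7.36 with si-MILIP, whereas IFI6 went from 8.74 to 19.6 and ISG15 from 5.75 to 13.5.

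Beyond the 49 genes, 72 further genes of interferon production, signaling and response were examined. Of these, 53 had a mean of at least 1, of which 7 were higher and 8 were lower, or 13.2% and 15.1%, with a median log2 ratio of 0.14. These shares are near the 11.1% and 13.8% of all genes. All 8 lower genes were among the 41 with a mean of at least 10, or 19.5%, against 15.1% of all genes at that level. Of the 12 with a lower mean, 5 were higher, or 41.7%, against 15.4%. IFNE was listed at 0 with si-ctrl and passed the mean only through its si-MILIP value. Without it 6 of 52 genes were higher (11.5%), and 4 of the 11 with a lower mean (36.4%). The matching shares of all genes above 0 in both libraries were not counted. This list was chosen with earlier results of these data known, so its shares only describe it.

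The lowest ratio was that of TRIM25, the ubiquitin ligase described as activating RIG-I, with values of 135 and 26.8, from 2690 and 534 reads, and a log2 ratio of −2.29 (limits −2.46 to −2.19). TRIM14, which is recruited to MAVS, had values of 41.6 and 12.6 (log2 ratio −1.65). ABCE1, also known as the RNase L inhibitor, had values of 156 and 49.3 (log2 ratio −1.64). On the opposite strand, 11.9% of the exonic bases of ABCE1 are shared with AC098588.1, ANAPC10 and OTUD4. The part of this overlap in the ABCE1 value was not tested. The other 5 lower genes, named here after their values were seen, were JAK2, CGAS, PNPT1, SOCS3 and MYD88.

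The highest ratios were those of IFNE, whose ratio is set by the added 1, STING1 and GBP2. STING1, the adaptor of cytosolic DNA sensing, was listed at 2.20 and 6.74, from 44 and 134 reads, a log2 ratio of 1.27 (limits 1.11 to 2.14), while CGAS, the DNA sensor upstream of it, was listed at 19.0 and 10.3. GBP2, an interferon-induced GTPase, was listed at 1.70 and 4.27. PARP10, TRIM38, TREX1 and SOCS1 were the other higher genes, also named after their values were seen. TREX1 shares 100% of its exonic bases with ATRIP, and its value is uncertain.

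Of the interferon genes themselves, IFNB1, IFNG, IFNL2 and IFNL3 had no value and IFNA1 and IFNL1 were listed at 0 in both libraries. IFNE, which encodes interferon epsilon, was listed at 0 with si-ctrl and at 2.21 with si-MILIP, from 44 reads. The receptor genes IFNGR1 (45.7 and 62.0) and IFNGR2 (22.0 and 23.6) and the kinases JAK1 (273 and 261) and TYK2 (71.8 and 70.6), also named after their values were seen, stayed within 1.5-fold.

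**Figure D4:**
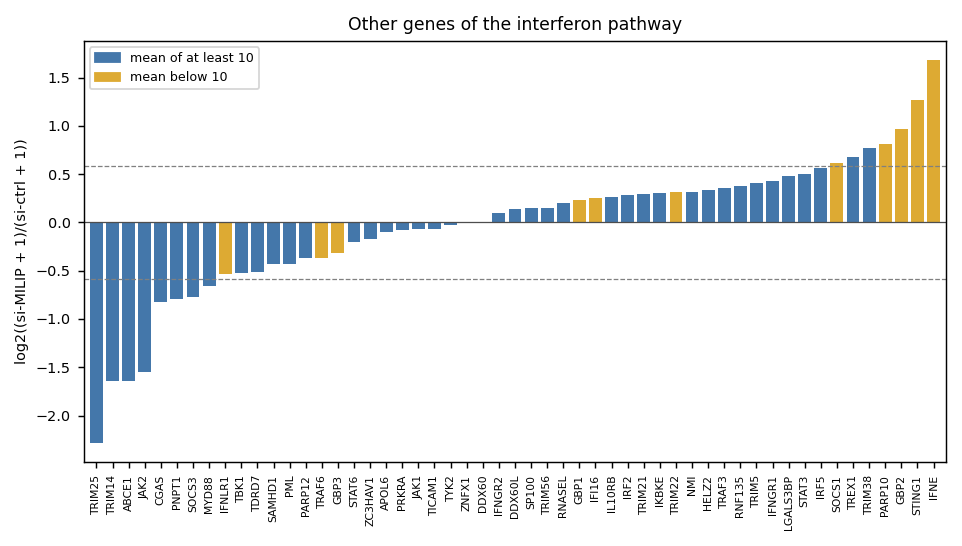
Log2 ratio with 1 added to each value for the 53 further genes of the interferon pathway with a mean of at least 1, in ascending order, coloured by whether the mean is at least 10 or below. Dashed lines mark 1.5-fold. The 8 genes below the lower line, from TRIM25 to MYD88, are all of the higher level, and 5 of the 7 above the upper line are of the lower level.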

How the data were processed

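RNA was sequenced from 1 si-ctrl and 1 si-MILIP library. The submitters' processing notes name TopHat2 2.0.12, HTSeq 0.6.1 and hg38. Annotation, strand use and normalization are not given in the sources used here. The authors deposited CPM values, scaled further per library, as columns named read counts. Steps were 0.0501 and 0.0503, and 100% of the values above 0 were whole multiples within 0.01 of a step. The authors' fold changes, p-values, q-values and calls were not used.

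Ratios used a pseudocount of 1, a mean of at least 1 and a threshold of 1.5-fold. Symbols came from a gene name table. Exon overlaps, lengths and GC content of the longest transcript came from GENCODE release 29 (GRCh38), which held 13398 of the 13521 genes. Promoters came from RefSeq (GRCh38.p14), and 10 members had none. Members and gene lists were chosen with earlier results of these data known. All members are named, and of the further pathway genes the 3 highest and 3 lowest ratios and the interferon genes. Further pathway genes outside that rule were named after their values were seen. Calculations were tested on simulated data. Alternatives were a pseudocount of 0.1 or none, scaling by the median of ratios, other filters, 2-fold, other splits by level, removal of the GC trend in 50 bins and, chosen after seeing the data, leaving out members that share exons or were listed at 0 in 1 library. Software was scipy 1.17.1, matplotlib 3.10.9 (figures), pandas 2.3.3 and numpy 2.4.6 under Python 3.11.15. A pair of genes on these lists is not reported here, and pathway genes not named are given as counts.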

Additional observations from a re-analysis of the deposited data

How the results depend on the processing

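No paired analysis was possible because there is a single library on either side, which also means that none could be left out. Settings at 1.5-fold with the same split by level gave 8 to 11 higher and 3 to 4 lower members, out of 30 to 37. They were a pseudocount of 0.1 or none, no filter, a mean of at least 5, scaling by the median of ratios and GC removal. Members that share exons, or were listed at 0 in 1 library, were also left out in turn. The counts of 8 were of 30 members. Of all 13521 genes, 1639 were higher and 1732 lower under scaling by the median of ratios, and 1799 and 2100 with a pseudocount of 0.1. With the GC trend removed, 1467 and 1605 of 13398 genes were. For the other settings, 2-fold and the other splits by level included, the share of all genes was not counted. At 2-fold, 4 members were higher (1 abundant and 3 low) and 3 were lower, with 0 low members lower. TLR3 was the 1 low member that was lower, and 0 remained under scaling by the median of ratios, a mean of at least 5 and GC removal. With abundant set from a mean of 5, 8 abundant and 2 low members were higher. From a mean of 20, 1 abundant member was higher and 2 low members were lower, since the split moves genes between the groups. No higher or lower member changed sign under these settings. Depth limits the low members most, as MX1 rested on 26 and 47 reads and the members listed at 0 in both libraries could not be compared.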

Other observations

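IFNE and CDKN2A lie on chromosome 9, from 21480839 to 21482313 and from 21967753 to 21995301 in GENCODE release 29. CDKN2A had no value in either library, whereas IFNE was listed at 0 with si-ctrl and at 2.21 with si-MILIP, from 44 reads. No other annotated gene shares exonic bases with IFNE.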
